A study of Caenorhabditis elegans with 18 samples.

Results

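The comparison described here sets dpf-3(xe68) mutants against N2, the Bristol wild type strain of Caenorhabditis elegans, in small RNA libraries of whole young adult worms. It takes in every dpf-3(xe68) and every N2 library, 3 of each, which makes 6 of the 18 libraries of the study. The other 4 genotypes were alg-1(gk214), dpf-3(xe68);alg-1(gk214), alg-2(ok304) and dpf-3(xe68);alg-2(ok304), with 3 libraries each. dpf-3(xe68) is labelled as an allele on chromosome I, with no other mutation named in these 3 libraries, and both groups were grown at 25 °C on OP50 bacteria on NGM plates. The labels call the tissue worm, so each library mixes the RNA of all cell types of the animal, together with any eggs it held. Counts of miRNAs do not read the dpf-3 transcript, so the genotype label could not be checked on the gene itself. Of the 175 miRNAs counted, 139 passed a filter on low counts and were tested, and those 139 are the members of the comparison.

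MiRNAs are short RNAs that guide Argonaute proteins to messenger RNAs through a seed near their 5′ end, and the bound messages are then translated less or broken down. In C. elegans the Argonautes ALG-1 and ALG-2 carry most miRNAs, and the Argonaute a mature miRNA is loaded into protects it from decay. dpf-3 encodes a dipeptidyl peptidase, an enzyme that trims N termini of proteins, and it is known in the worm germline for processing Argonautes that carry other small RNAs. Many worm miRNAs form families with a shared seed. The let-7 and lin-4 families are known for timing larval development, and the mir-35 family for its presence in oocytes and embryos, where it is needed for embryonic development. The question is which miRNAs are more or less abundant when dpf-3 is mutated alone.

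The dpf-3 libraries held 17.1, 18.5 and 22.5 M (mega) counts and the N2 libraries 16.0, 17.5 and 17.3 M. Across the 139 miRNAs, log2 CPM correlated at 0.995 to 0.998 between dpf-3 libraries, at 0.996 to 0.998 between N2 libraries and at 0.978 to 0.986 between a dpf-3 and an N2 library. CPM are counts divided by the library total in M, after scaling with TMM factors, which allow for a change in a few abundant RNAs. One library of each group stood somewhat apart. dpf-3 replicate 2 was the farthest of its group for 77 of the 139 miRNAs, and N2 replicate 1 for 75 of them. dpf-3 replicate 2 had the lowest level of 7 members of the mir-35 family and of mir-71 in its group, and the highest of mir-42, mir-788 and mir-247.

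In dpf-3 animals, 22 miRNAs were higher and 25 lower than in N2, out of 139 tested, at an adjusted p below 0.05. The calls made up 33.8% of the miRNAs tested, 15.8% for the rises and 18.0% for the falls. Of the rises 6 (4.32% of those tested) reached 2-fold, and of the falls 12 (8.63%). Under upper quartile scaling 11 rises and 7 falls did so. With the mir-35 family left out 6 rises and 4 falls did, as its 8 members were then not tested. The 12 falls include the scarce mir-260 and mir-1823, with means of 1.12 and 0.426 CPM over the 6 libraries. Neither was above the level of the low-count filter, 0.690 CPM, in all 6 libraries. The mir-1823 call was lost in 4 of the fits that left out 1 library. Within 1.5-fold lay 18 of the 47 calls. The largest falls were those of mir-35 to mir-41. The largest rises were those of mir-788, mir-2208b and the developmental timing miRNAs mir-241 and mir-48. The median change over all 139 was 0.02 on the log2 scale, with 73 miRNAs above 0 and 66 below. For 64 miRNAs (46.0%) the 3 dpf-3 libraries lay wholly above or wholly below the 3 N2 libraries, 30 of them with dpf-3 higher (21.6%) and 34 with dpf-3 lower (24.5%).

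The adjusted p-values come from edgeR's quasi-likelihood test in 1 fit of all 18 libraries, with the Benjamini-Hochberg procedure over all 139. The split into rises and falls depends on the scaling. It was 15 higher and 27 lower with RLE factors and 32 and 20 without composition factors. With the mir-35 family left out it was 25 and 14 among 131 tested, a setting that also removes the family's 8 falls from the count. Under upper quartile scaling, where the median change over the miRNAs was 0.33, it was 57 higher and 11 lower. Changes below about 0.3 on the log2 scale are therefore small beside the choice of scaling.

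**Figure D1:**
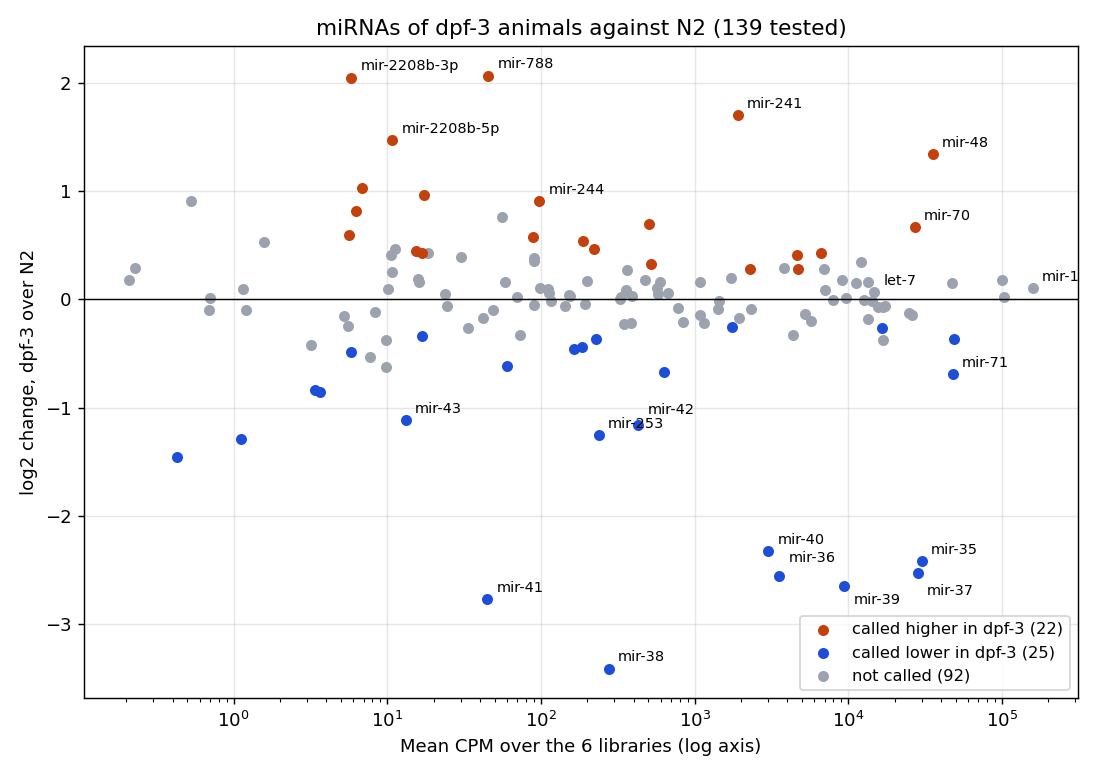
Log2 change in dpf-3 over N2 (vertical axis) against mean level over the 6 libraries in CPM (horizontal log axis) for the 139 miRNAs tested, with the 22 called higher, the 25 called lower and the rest in separate colours. mir-35 to mir-41 lie lowest, between -2.32 and -3.41, and mir-48 is the most abundant of the miRNAs that rose 2-fold or more.

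The mir-35 family was lower in dpf-3 animals, with a median change of -2.54 against 0.02 over all miRNAs. All 8 of its members, mir-35 to mir-42, passed the test as falls, beside 18.0% of all miRNAs tested. With upper quartile factors 7 of the 8 members passed as falls, and mir-42 did not pass. These miRNAs come from the female germline and the early embryo, and worms that lack the family die mostly as embryos. Together they made up 2.62, 1.66 and 2.98% of the counts of the dpf-3 libraries, against 11.7, 13.5 and 12.8% in N2. The share averaged 2.42% ± 0.680 in dpf-3 animals and 12.6% ± 0.916 in N2 (SD, n = 3 each), a difference of -10.2 percentage points and 5.22-fold lower. The 2 groups did not overlap, and a two-sided exact permutation test gave p = 0.1, the smallest that 3 libraries against 3 allow.

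The 2 most abundant members carried most of that difference. mir-35 stood at 10449, 6247 and 11954 CPM in dpf-3 animals, against 45338, 57408 and 50099 CPM in N2. Every dpf-3 library was far below every N2 library, and dpf-3 replicate 2 was the lowest, with a log2 change of -2.42 (SE 0.28, adjusted p = 4.91e-06). mir-37 stood at 8459.8, 5791 and 10837 CPM in dpf-3 animals, against 45277, 52223 and 47522 CPM in N2. It showed the same order of libraries, and its log2 change was -2.53 (SE 0.27, adjusted p = 2.14e-06). By abundance, mir-35 ranked 25th in dpf-3 animals and 6th in N2, and mir-37 ranked 26th in dpf-3 animals and 7th in N2.

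The deepest fall was that of a minor member, mir-38, at 57.2, 26.3 and 59.2 CPM in dpf-3 animals against 498, 519 and 503 CPM in N2. This is a 10.6-fold lower level, with a log2 change of -3.41 (SE 0.45, adjusted p = 1.68e-05). The log2 changes were -2.77 for mir-41 (SE 0.34), -2.65 for mir-39 (SE 0.32), -2.55 for mir-36 (SE 0.26) and -2.32 for mir-40 (SE 0.30). None of these miRNAs overlapped between the groups, beside 24.5% of all miRNAs tested that had no overlap and dpf-3 lower. In the reference annotation mir-35 to mir-41 sit next to each other on the same strand, and these 7 were called under every alternative that gave them a value. The counts of mir-36 to mir-42 include fractions, which can arise when a read is divided among names it matches, so the levels of single members are less certain than the family's total.

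mir-42, the eighth member, lies apart from these 7 beside mir-43 and mir-44, and its change was smaller, a difference that was not tested. It stood at 203, 429 and 168 CPM in dpf-3 animals, against 456, 684 and 643 CPM in N2. dpf-3 replicate 2, which was lowest for the other 7, was the highest of the dpf-3 libraries for mir-42 and came close to N2 replicate 1. The log2 change was -1.16 (SE 0.39, adjusted p = 0.0350). Among other settings, this call was lost when dpf-3 replicate 1 (-0.99), dpf-3 replicate 3 (-0.91), N2 replicate 2 (-1.04) or N2 replicate 3 (-1.10) was left out, and with upper quartile factors (-0.78).

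Within the family the makeup changed little beside the fall of the whole. mir-35 was 41.6% ± 1.28 of the family's counts in dpf-3 animals and 39.8% ± 0.705 in N2, and mir-37 was 36.6% ± 1.69 in dpf-3 animals and 37.9% ± 1.12 in N2 (SD, n = 3 each). mir-38 was 0.204% ± 0.0325 of the family's counts in dpf-3 animals and 0.398% ± 0.0314 in N2. mir-42 was 0.831, 2.76 and 0.587% of them in the dpf-3 libraries, against 0.394, 0.484 and 0.509% in N2. These shares were not tested.

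This family is also the marker list for oocytes and embryos. In whole worms fewer cells of a type and less RNA per cell cannot be told apart, and the number of oocytes or embryos per animal is not in the data. Its part in the result was not tested.

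**Figure D2:**
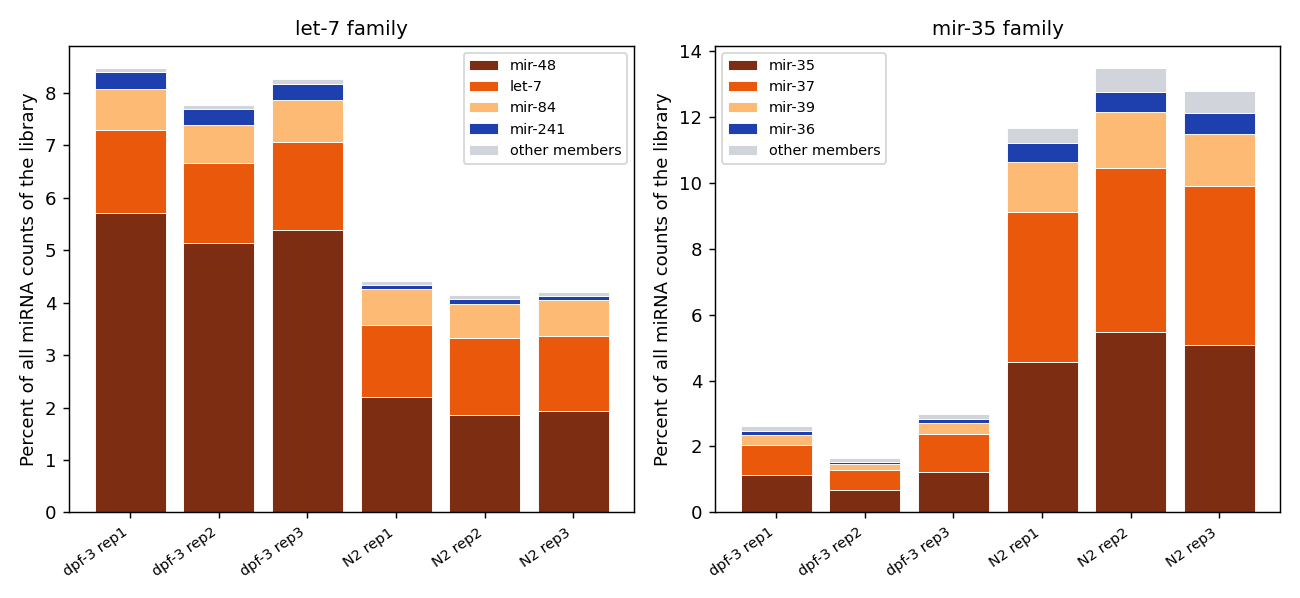
Percent of all miRNA counts of each library (vertical axis) held by the let-7 family and the mir-35 family, as stacked bars of their members, 1 bar per library with dpf-3 left of N2. The mir-35 family bars end at 1.66 to 2.98% in dpf-3 animals against 11.7 to 13.5% in N2, and in the let-7 family the mir-48 segment is the one that differs most.

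Some developmental timing miRNAs moved the other way. Of 6 listed, mir-48, mir-241, mir-237 and lin-4 rose in dpf-3 animals, while let-7 and mir-84 did not pass the test. Over all miRNAs 15.8% rose, and the list's median was 0.35 against 0.02 over all. With upper quartile factors all 6 passed as rises, with let-7 at 0.37 and mir-84 at 0.39. With RLE factors and with DESeq2 only 3 of the 6 did, as lin-4 was not called. mir-48 and mir-241 belong to the let-7 family and act with mir-84 to repress hbl-1 during larval development, while let-7 itself acts later through lin-41. The levels here are those of young adults, after the larval stages.

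mir-48 was the most abundant miRNA of those that rose. It reached 53178, 47892 and 51805 CPM in dpf-3 animals, against 21791, 19426 and 19068 CPM in N2. The 3 dpf-3 libraries were all more than 2-fold above the 3 N2 libraries, and the change was 1.34 on the log2 scale, or 2.54-fold (SE 0.08, adjusted p = 1.45e-09). mir-48 rose to 5.41% ± 0.292 of all counts in dpf-3 animals, where it was the 4th most abundant miRNA, against 1.99% ± 0.180 and 12th place in N2 (SD, n = 3 each).

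mir-241, the neighbour of mir-48 on the same strand, also rose, at a lower level. It was counted at 2916, 2706 and 3102 CPM in dpf-3 animals, against 767, 982 and 933 CPM in N2. The groups lay far apart, with a log2 change of 1.70 (SE 0.14, adjusted p = 7.78e-08). Both miRNAs were called under each of the 21 alternatives. The difference between them was not tested, and the counts of mir-241 include fractions while those of mir-48 are whole.

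let-7 had 14719, 14395 and 16180.3 CPM in dpf-3 animals, against 13626, 15568 and 14083 CPM in N2. The groups overlapped and the log2 change was 0.07 (SE 0.11, adjusted p = 0.709). For mir-84 the change was 0.09 (SE 0.09, adjusted p = 0.520). mir-795, a scarcer member, had 260.4, 237 and 269 CPM in dpf-3 animals and 147, 226 and 182 CPM in N2, and its rise of 0.47 (SE 0.17) just passed at an adjusted p of 0.0406. That call was lost without dpf-3 replicate 1 (0.45), dpf-3 replicate 3 (0.43), N2 replicate 1 (0.33) or N2 replicate 3 (0.45). The remaining members, mir-793, mir-794 and mir-1821, had changes of 0.03, 0.02 and -0.17 and did not pass. In all, 3 of the 8 tested members rose, beside 15.8% of all miRNAs tested, and the family's median change was 0.08. With RLE factors mir-795 was not called, which left 2 rises, and with upper quartile factors 5 of the 8 passed.

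The makeup of the let-7 family differed accordingly. mir-48 was 66.2% ± 1.15 of the family's counts in dpf-3 animals and 46.8% ± 2.72 in N2. let-7 was 19.6% ± 0.865 of them in dpf-3 animals and 33.6% ± 2.31 in N2 (SD, n = 3 each). The family as a whole held 8.17% ± 0.359 of all counts in dpf-3 animals and 4.25% ± 0.135 in N2, without overlap between the libraries.

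lin-4, the first miRNA found and a repressor of lin-14, and mir-237, which shares its seed, were both higher, by less than 1.5-fold. mir-237 had 5078, 5635 and 5198 CPM in dpf-3 animals, against 4193, 4105 and 3681 CPM in N2. The groups did not overlap, and the log2 change was 0.41 (SE 0.09, adjusted p = 0.00207). lin-4 had 2625, 2652 and 2314 CPM in dpf-3 animals, against 1995, 2129 and 2115 CPM in N2. Its change of 0.28 (SE 0.09, adjusted p = 0.0249) is within the shift that scaling can bring: the call was lost with RLE factors (0.22), and also without dpf-3 replicate 1 (0.26), dpf-3 replicate 2 (0.26), N2 replicate 1 (0.25) or N2 replicate 3 (0.30).

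**Figure D3:**
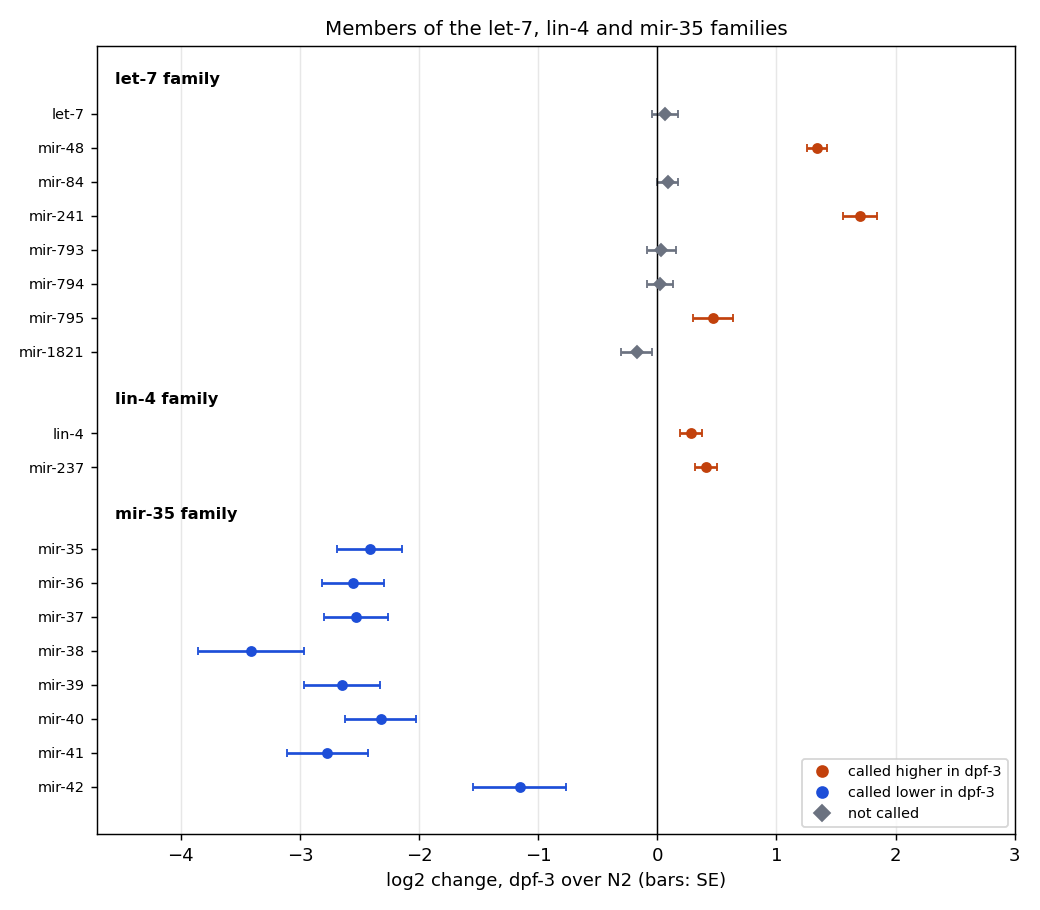
Log2 change in dpf-3 over N2 (horizontal axis, bars are the SE) of every member of the let-7, lin-4 and mir-35 families, coloured by call. All mir-35 members lie below -1, while mir-48 and mir-241 stand apart from the rest of the let-7 family.

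**Figure D4:**
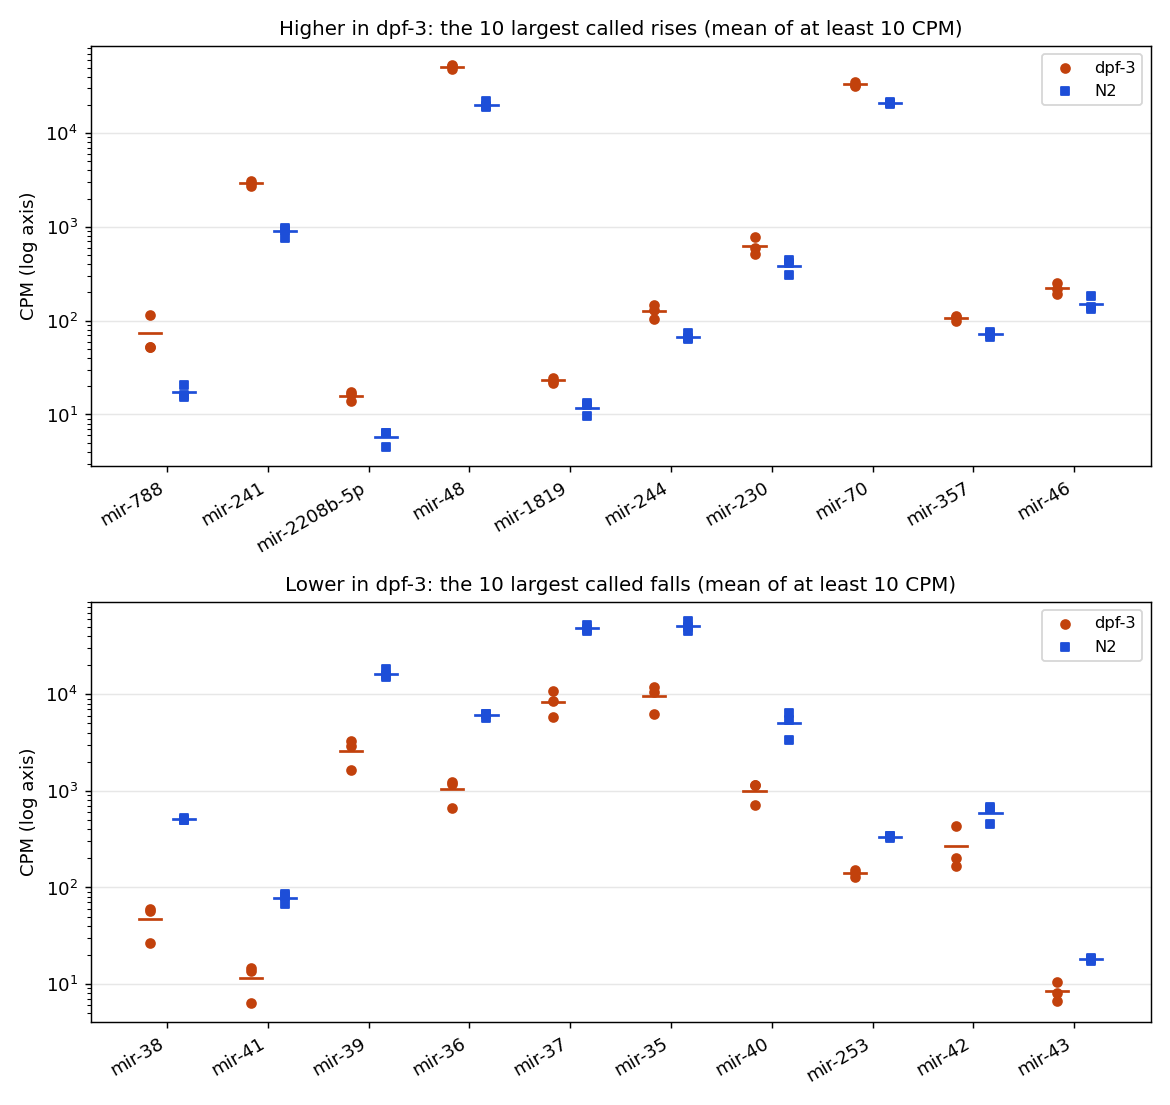
Level in CPM (log axis) of the 10 largest rises and the 10 largest falls, with 1 point per library, a line at each group's mean, and dpf-3 left of N2. Shown are miRNAs that passed the test at a mean level of 10 CPM or more without overlap between the groups. The dpf-3 points of mir-35 to mir-41 lie below all N2 points, as this choice requires of a fall. mir-788 has its highest point in dpf-3 replicate 2, at 115 CPM.

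The largest rise among miRNAs with a mean of 10 CPM or more was that of mir-788. It had 52.3, 115 and 52.7 CPM in dpf-3 animals, against 20.9, 16.2 and 15.4 CPM in N2. All dpf-3 libraries were above all N2 libraries, and dpf-3 replicate 2 was more than 2-fold above the other 2 of its group. The log2 change was 2.07 (SE 0.39, adjusted p = 0.000628), and 1.61 without dpf-3 replicate 2, when it was still called.

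Both arms of mir-2208b rose. The arm named mir-2208b-5p had 16.4, 13.9 and 17.4 CPM in dpf-3 animals, against 4.48, 6.29 and 6.35 CPM in N2, with a log2 change of 1.47 (SE 0.16, adjusted p = 1.57e-06). The arm named mir-2208b-3p had 9.82, 8.13 and 10.2 CPM in dpf-3 animals, against 1.43, 2.88 and 2.46 CPM in N2, and its change was 2.05 (SE 0.20, adjusted p = 4.67e-07). The groups did not overlap for either arm. mir-2208b is one of few hairpins for which the files list both arms. The 3p arm held 37.5, 36.9 and 37.0% of the 2 arms' counts in dpf-3 animals (95% exact Clopper-Pearson intervals 33.2 to 42.0, 32.4 to 41.6 and 33.3 to 40.9%). In N2 it held 24.2, 31.4 and 27.9% (intervals 16.0 to 34.1, 24.1 to 39.4 and 21.0 to 35.7%). The shares were higher in all 3 dpf-3 libraries, but the interval of every dpf-3 library overlaps that of every N2 library, and the intervals cover counting error only.

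Several rises came in pairs of neighbouring miRNA genes. mir-2209a, beside mir-2208b, had 10.4, 7.97 and 9.33 CPM in dpf-3 animals, against 3.67, 5.75 and 4.06 CPM in N2, with a log2 change of 1.03 (SE 0.21, adjusted p = 0.00102). The other 2 miRNAs of that stretch, mir-2208a (0.53, SE 0.38) and mir-2209c (0.01, SE 0.44), did not pass. Both were scarce, with means of 1.58 and 0.702 CPM over the 6 libraries. mir-1819 had 22.7, 24.6 and 21.9 CPM in dpf-3 animals, against 9.53, 13.3 and 12.7 CPM in N2. It rose by 0.96 (SE 0.16, adjusted p = 0.000123), and its neighbour mir-2212 rose by 0.82 (SE 0.18, adjusted p = 0.00147).

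mir-357 had 113, 108 and 99.1 CPM in dpf-3 animals, against 66.6, 76.5 and 72.0 CPM in N2, a change of 0.58 (SE 0.10, adjusted p = 0.000233). Its neighbour mir-358 rose by 0.45 (SE 0.14, adjusted p = 0.0198), a call lost without dpf-3 replicate 1 (0.42), N2 replicate 1 (0.41) or N2 replicate 2 (0.38). Neighbours did not always move together. mir-230 rose by 0.70 (SE 0.20, adjusted p = 0.0110; 0.53 and not called without dpf-3 replicate 2, 0.57 and not called without N2 replicate 1), beside mir-791 at 0.05 (SE 0.16), which did not pass. mir-228 rose by 0.43 beside mir-790 at -0.08, and mir-795 rose by 0.47 beside mir-794 at 0.02. Neither mir-790 nor mir-794 passed. None of the differences between neighbours was tested, nor was the number of pairs that rose together.

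**Figure D5:**
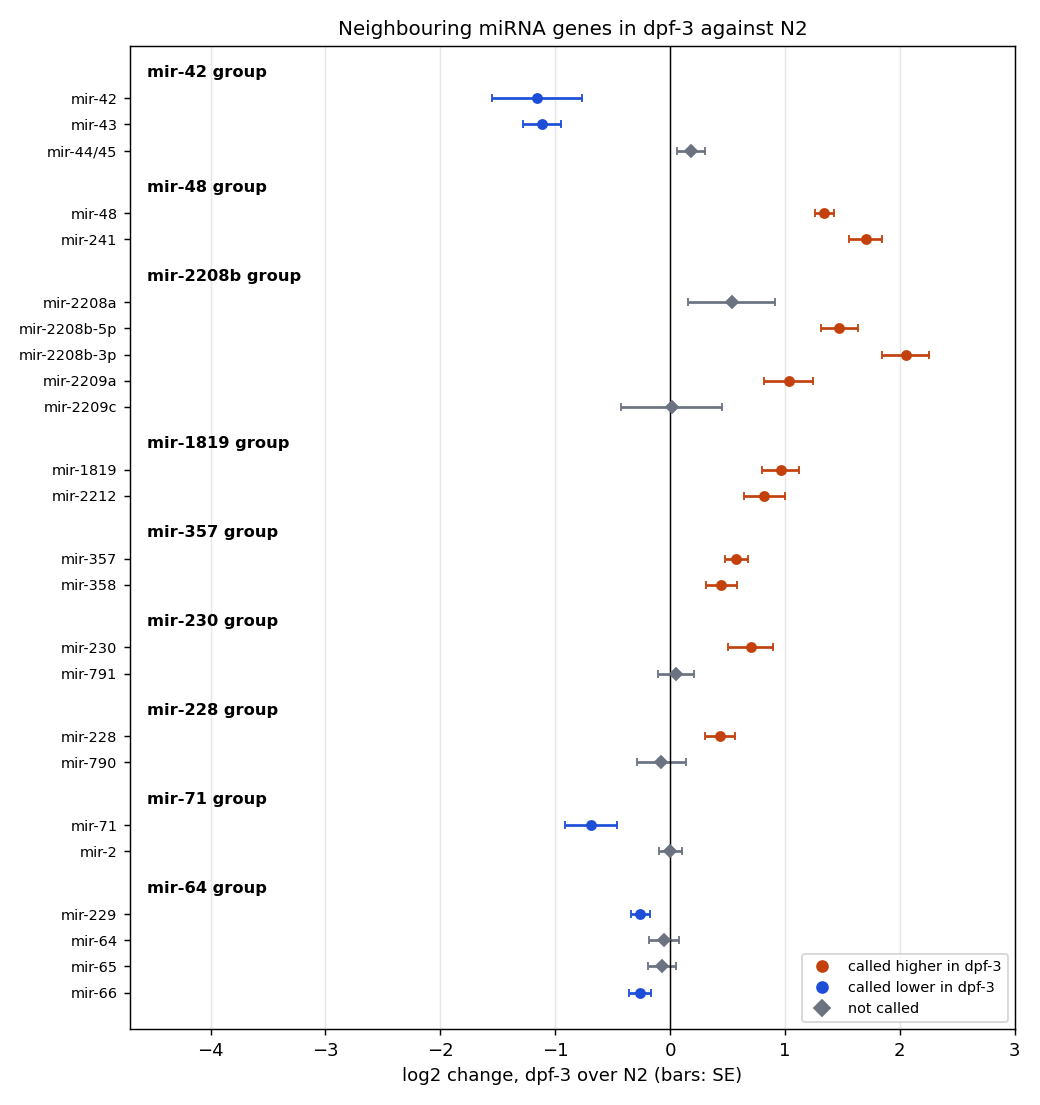
Log2 change in dpf-3 over N2 (horizontal axis, bars are the SE) of chosen groups of neighbouring miRNAs, grouped by stretch and coloured by call. Their genes lie within 10 kb of each other on the same strand, outside the mir-35 to mir-41 stretch. Other neighbours are not shown, among them mir-794 (0.02, not called) beside mir-795 (0.47, called higher). mir-48 and mir-241 lie at 1.34 and 1.70, and mir-42 and mir-43 at -1.16 and -1.11 beside mir-44/45 at 0.18.

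mir-70 was the second most abundant of the miRNAs that rose. It had 32357, 32139.6 and 35457 CPM in dpf-3 animals, against 21275, 21005 and 20559.7 CPM in N2, a change of 0.67 (SE 0.11, adjusted p = 8.19e-05), and the groups did not overlap. It held 3.53% ± 0.129 of the counts in dpf-3 animals and 2.07% ± 0.0716 in N2 (SD, n = 3 each). mir-244 rose by 0.91 (SE 0.18, adjusted p = 0.000767), with 129, 148 and 105 CPM in dpf-3 animals and 73.7, 63.9 and 65.5 CPM in N2. mir-46 rose by 0.54 (SE 0.16, adjusted p = 0.0134), a call lost without dpf-3 replicate 3 (0.43), N2 replicate 1 (0.49) or N2 replicate 2 (0.46). mir-47, which shares the seed of mir-46, had a change of 0.18 (SE 0.09) and did not pass.

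Among the falls outside the mir-35 family, mir-253 and mir-43 were the largest of those with a mean of 10 CPM or more. mir-253 had 152, 128 and 140.2 CPM in dpf-3 animals, against 345, 322 and 337 CPM in N2. Its libraries were tightly grouped, and the log2 change was -1.26 (SE 0.18, adjusted p = 1.90e-05). mir-43, beside mir-42, had 6.60, 10.4 and 8.09 CPM in dpf-3 animals, against 18.7, 17.4 and 18.4 CPM in N2, and its change was -1.11 (SE 0.17, adjusted p = 4.53e-05). mir-44/45, the sum of mir-44, the next neighbour, and the identical mir-45, had a change of 0.18 (SE 0.12, adjusted p = 0.277) and did not pass. The files cannot tell mir-44 from mir-45. mir-43 carries the seed of the mir-2 family, whose other 3 members, mir-2, mir-250 and mir-797, did not pass, at 0.0034, 0.06 and 0.42.

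Of 6 miRNAs listed for ageing and stress, mir-71 and mir-34 fell and none rose, beside 33.8% called over all miRNAs and 18.0% called lower, so the count alone does not set the list apart. The list's median was -0.48, against 0.02 over all miRNAs. mir-71, which extends the lifespan of worms and is needed for stress resistance, had 39235, 25872 and 44855 CPM in dpf-3 animals, against 61338, 59044 and 56779.6 CPM in N2. The groups did not overlap, and dpf-3 replicate 2 was well below the other 2 of its group. The log2 change was -0.69 (SE 0.22, adjusted p = 0.0279), and the call did not hold in most fits that left out 1 library. It held without dpf-3 replicate 3 and was lost without dpf-3 replicate 1 (-0.74), dpf-3 replicate 2 (-0.47), N2 replicate 1 (-0.66), N2 replicate 2 (-0.69) or N2 replicate 3 (-0.72), and with upper quartile factors (-0.41).

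mir-34, also linked to ageing and the stress response, fell more evenly. It had 460.3, 521 and 491 CPM in dpf-3 animals, against 804, 773 and 761 CPM in N2, with a log2 change of -0.67 (SE 0.12, adjusted p = 0.000193). It stayed called without any of the 6 libraries and lost its call with upper quartile factors (-0.35). The other 4, mir-246, mir-238, mir-239a and mir-239b, had changes of -0.33, -0.07, -0.33 and -0.63 and did not pass.

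Smaller falls were scattered over other families. mir-82 fell by 0.36 (SE 0.11, adjusted p = 0.0146) while the other 3 tested members of the mir-58 family, which is related to bantam of flies, did not pass. The mir-82 call was lost without dpf-3 replicate 2 (-0.25) or N2 replicate 1 (-0.30). mir-74 fell by 0.46 (SE 0.12) while mir-72 and mir-73, of the same family, had changes of -0.13 and -0.20 and did not pass. mir-83, related to miR-29 of mammals, fell by 0.37 (SE 0.10) while mir-49 had a change of 0.16 and did not pass. All 6 members of the mir-51 family missed the threshold, and their median was -0.01. The 3 tested mirtrons, which are spliced out as introns and bypass Drosha, also missed it, with changes between -0.12 and 0.17. Over all miRNAs 33.8% were called, so missing the threshold was the usual outcome. mir-82, mir-74 and mir-83 lost their calls with upper quartile factors, where 2 members of each of the mir-58 and mir-51 families and 1 mirtron were called higher.

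Of the markers of neurons, muscle, intestine and glia, mir-228 passed the test and the others did not, beside 33.8% called over all miRNAs. The lists are short, so the count alone does not set them apart. mir-1, the muscle miRNA and the most abundant in both groups, held 17.4% ± 1.71 of the counts in dpf-3 animals and 15.1% ± 1.09 in N2 (SD, n = 3 each), and its change of 0.10 (SE 0.10, adjusted p = 0.458) did not pass. Of the 5 neuron markers, among them lsy-6 (0.43) and mir-124 (-0.37), none passed, and their median was 0.03. The 2 intestine markers, mir-60 and mir-243, had changes of -0.17 and -0.23 and did not pass. mir-228, a glial miRNA, rose by 0.43 (SE 0.13, adjusted p = 0.0177), with 7523, 8622 and 6791 CPM in dpf-3 animals and 5263, 6088 and 5641 CPM in N2. The mir-228 call was lost without dpf-3 replicate 2 (0.35), N2 replicate 1 (0.38) or N2 replicate 3 (0.43). With upper quartile factors mir-1 (0.41) was called higher too. lsy-6 was called higher with upper quartile factors (0.75), without composition factors (0.53) and with the mir-35 family left out (0.44).

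The 10 most abundant miRNAs of N2 held 60.5% ± 1.62 of the counts in dpf-3 animals and 65.4% ± 1.27 in N2 (SD, n = 3 each). Choosing these 10 by their level in N2 favours a lower sum in dpf-3 animals. Of these 10, mir-71, mir-82, mir-35 and mir-37 fell, beside 18.0% called lower over all miRNAs. The others, mir-1, mir-58, mir-44/45, mir-80, mir-52 and mir-72, did not pass. mir-58 had a change of 0.02 (SE 0.09), mir-80 of 0.16 (SE 0.17), mir-52 of -0.14 (SE 0.09) and mir-72 of -0.13 (SE 0.09).

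The low end of the range was set by the filter on low counts. Of the 139 tested, 132 were above the filter's level of 0.690 CPM in all 6 libraries. mir-260 was above it in all 3 N2 libraries and not in all dpf-3 libraries, so it passed the filter through the group where it was higher, and its change of -1.28 (SE 0.28) is given as a description. Just inside the filter, mir-2209c had 17, 13 and 13 counts in dpf-3 animals and 5, 17 and 13 in N2, and just outside it mir-2210 had 2, 9 and 14 counts in dpf-3 animals and 2, 9 and 4 in N2. The 36 miRNAs left out held 0.000272% of the counts of the 6 libraries, and changes among them were not detectable at this depth.

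The change of some miRNAs in dpf-3 animals differed from the change that dpf-3(xe68) brought on top of an Argonaute mutation. mir-48 changed by 0.17 in the alg-1(gk214) background and by 0.12 in the alg-2(ok304) background, against 1.34 in the wild type background. The differences of -1.17 (SE 0.12, edgeR adjusted p = 1.02e-07) and -1.22 (SE 0.12, edgeR adjusted p = 1.11e-06) both passed, and under upper quartile scaling the alg-1 difference was -2.60. In CPM, mir-48 averaged 29334 ± 2620 in the double mutant with alg-1 and 26045 ± 795 in alg-1 alone (SD, n = 3 each). It averaged 31903 ± 1251 in the double mutant with alg-2 and 29388 ± 672 in alg-2 alone (SD, n = 3 each). Tests of the difference itself called 69.1% of all miRNAs in the alg-1 background and 28.1% in the alg-2 background, so a called difference is common, above all with alg-1. The comparisons of dpf-3 in these backgrounds share no library with dpf-3 against N2. The tested differences do contain the dpf-3 and N2 libraries, and mir-48 was picked for its large change between them. Its neighbour mir-241 changed by 1.71 in the alg-1 background and by 1.70 in the wild type background. That difference did not pass (edgeR adjusted p = 0.975), while under upper quartile scaling it was -1.40 and called.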

How the data were processed

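Small RNA was sequenced from whole young adult worms. Per the labels' protocols, Trizol RNA went into a NEBNext small RNA kit, and miRNA-sized products were selected on a gel. The submitters' processing notes name Bowtie 0.12.7, while the genome build and the annotation of miRNAs were not given in the sources used here. Deposited are expected counts without normalization: column 5, which was used, is the sum of columns 3 and 4, whose meaning is not stated. In the 6 libraries 75 to 84.7% of the values were whole at a tolerance of 1e-06, and column 4 held at most 0.00253% of the counts. Fractional values can arise from reads that match several miRNAs, so near-identical members are uncertain. Expected counts were rounded, and mir-44 and mir-45, identical in all 18 libraries, were summed, which left 175 of 176 names.

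The test was that of edgeR 4.0.16 under R 4.3.3 (robust quasi-likelihood test, TMM factors of 0.952 to 1.07 in the 6 libraries, a filter asking for about 10 counts in as many libraries as a group has and 15 in total). All 18 libraries entered the fit with genotype as the term, leaving 12 residual degrees of freedom, so the 12 libraries of other genotypes helped to estimate the spread, and the biological coefficient of variation shared by all miRNAs was 14.0%. Called means an adjusted p under 0.05 by Benjamini-Hochberg over the 139 tested. The SE comes from the log2 change and its F statistic. The same fit tested the differences of the dpf-3 effect between backgrounds. The scripts were tested on simulated data. Named miRNAs are the 10 largest rises and 10 largest falls that were called with a mean of 10 CPM or more and no overlap between groups, the 10 most abundant of N2, members of fixed family and tissue lists, neighbours of these within 10 kb on the same strand, and those at the edge of the filter. mir-260 and mir-1823, below that mean, were named after their values were seen. Members and lists were chosen with earlier results of these data known. Neighbours were taken from the WBcel235 annotation, in which 165 of 174 hairpin names matched, and no coordinates are given because the build of the files is not stated. Sequences were not used here.

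Alternatives were other scaling factors, other filters, DESeq2 1.42.0, limma-voom (limma 3.58.1), fits of fewer libraries, a replicate block, column 3 alone, unrounded counts and leaving out each library. Whether replicates were separate cultures is not stated in the labels. The p-values thus measure the spread of these libraries only, and that spread may be technical. No pair of libraries of a group was identical or agreed within sampling noise.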

Additional observations from a re-analysis of the deposited data

Results flagged for a closer look

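For the 5 largest rises and the 5 largest falls among called miRNAs with a mean level of 10 CPM or more, the change in dpf-3 over N2 was set against the change that dpf-3(xe68) brought in the alg-1(gk214) and alg-2(ok304) backgrounds. The difference itself was tested with edgeR, adjusted over all 139 miRNAs, and 17 of the 20 differences passed. Over all miRNAs 69.1% of the differences passed in the alg-1 background and 28.1% in the alg-2 background. The 10 miRNAs were picked for their large change in the wild type background, and that change enters each difference. They are given as effect in the background minus effect in wild type, on the log2 scale.

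In the alg-1 background the 5 members of the mir-35 family among them had changes between 2.15 and 4.88, opposite in sign to their fall in the wild type background. The difference was 5.56 for mir-38, 5.80 for mir-41, 5.66 for mir-39, 5.81 for mir-36 and 7.41 for mir-37. mir-37, for example, averaged 23942 ± 11324 CPM in dpf-3;alg-1 and 812 ± 63.4 CPM in alg-1 (SD, n = 3 each), against 8363 ± 2524 CPM in dpf-3 and 48341 ± 3544 CPM in N2. Among the rises, the difference was -5.34 for mir-788, which changed by -3.27 in the alg-1 background, -0.90 for mir-2208b-5p and -1.17 for mir-48. For mir-241 (0.0099, adjusted p = 0.975) and mir-1819 (-0.0037, adjusted p = 0.997) the difference did not pass. Upper quartile scaling shifted the differences with alg-1 downwards. It gave -1.40 for mir-241 and -1.43 for mir-1819, both then called, and -2.60 for mir-48, -2.30 for mir-2208b-5p and -6.82 for mir-788. The 5 members of the mir-35 family stood at 4.16 to 6.01 under it and kept their calls.

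The alg-2 and dpf-3;alg-2 libraries are numbered apart from the other libraries of the series, and any effect of that was not tested. In the alg-2 background the same 5 members of the mir-35 family had changes between -0.67 and 0.81. The difference was 2.74 for mir-38, 3.58 for mir-41, 2.83 for mir-39, 2.63 for mir-36 and 2.35 for mir-37. Here mir-37 averaged 1438 ± 119 CPM in dpf-3;alg-2 and 1626 ± 229 CPM in alg-2 (SD, n = 3 each). A part of the starting level in these differences was not tested. Among the rises, the difference was -1.90 for mir-788, -1.53 for mir-241, -1.22 for mir-48 and -1.02 for mir-1819. The mir-788 difference missed the threshold without alg-2 replicate 1, at -1.51. For mir-2208b-5p the difference was -0.38 (adjusted p = 0.231).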

How the results depend on the processing

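Of the 47 calls, 23 held under every one of the 21 alternatives that gave a value, and 28 held without each of the 6 libraries in turn. Upper quartile factors gave 57 rises and 11 falls and put the median over all miRNAs at 0.33; mir-66 (0.048) and mir-229 (0.049), which fell in the reported fit at -0.26 each, turned above 0 without passing, and the mir-241 difference between the alg-1 and wild type backgrounds became -1.40. Without the mir-35 family 14 were lower, and with a filter at a mean of 10 CPM 11 were higher; both settings test fewer miRNAs, and calls were also lost among miRNAs still tested, for example mir-75 in the first and lin-4 and mir-795 in the second. Leaving out 1 library gave 15 to 20 rises and 17 to 22 falls. The other alternatives gave 15 to 32 rises and 18 to 28 falls. DESeq2 called 17 rises and 28 falls, and limma-voom 22 and 25. With the fit restricted to the dpf-3 and N2 libraries there were 17 rises and 19 falls, and without the alg-1 groups, an alternative chosen after seeing the data, 20 and 20. The share of the mir-35 family differed by -10.7 to -9.79 points without single libraries. A change of sign between values that both missed the threshold was not counted as a reversal, and the cause of these shifts was not tested.

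Replicate numbers are shared between the groups, but same-numbered libraries did not deviate together: the correlations of their deviations were -0.28, -0.23 and -0.13, so the numbers were not taken as pairs. With a replicate block over all libraries 20 miRNAs were higher and 21 lower, and with a block over the 6 libraries alone 15 and 18. mir-42 missed the threshold with the block over all libraries, at -1.17 (edgeR adjusted p = 0.0504). For the share of the mir-35 family, an exact sign-flip over the 3 numbers gave p = 0.25, the smallest it allows.

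mir-356 is listed as called higher in the fit, but all of its counts are in column 4, whose meaning is not stated, and it has no value in a fit of column 3 alone. Scarce miRNAs are limited by depth: 7 of the 139 tested were not above the filter's level in all 6 libraries.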
